A study of Danio rerio with 17 samples.

Results

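Keratinocytes and neutrophils hand-picked from the skin of adult zebrafish were compared over every gene, using the 3 keratinocyte and the 3 neutrophil libraries of a series of 17. The keratinocytes came from Tg(krt4:lyn-GFP) fish, in which the krt4 promoter drives a membrane-bound green fluorescent protein. The neutrophils came from Tg(lyz:GFP) fish, in which the lysozyme promoter drives green fluorescent protein. The other 11 libraries hold 4 of cLCs, 4 of the mpeg1+ cells the labels call MLCs, and 3 of T cells. They entered the choice of tested genes, the scaling and the estimate of spread. Their levels are described without a test where they are named. Fluorescent cells were lysed directly and their RNA was amplified by SMART-seq2, a full-length cDNA method for very small inputs. The number of cells per library and per fish is not given in the sources used here. Replicates of a cell type came from separate experiments by the submitters' account, so the p-values measure the spread between those experiments.

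Keratinocytes build the epithelial sheet of the skin: they are held together by cadherins, desmosomes and claudin-based tight junctions, are filled with keratin filaments and, at the surface, assemble envelope proteins under the membrane. Neutrophils are motile phagocytes that store proteases and antimicrobial proteins in granules, crawl by remodelling actin, and kill with a membrane NADPH oxidase. In fish skin they patrol an epidermis made of living cells to its outermost layer, without the dead cornified layer of mammals.

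Levels are given as CPM, the count of a gene over the TMM-scaled library size, in the order replicate 1, 2 and 3. Library totals ranged from 10557601 to 22118546 counts in keratinocytes and from 14082748 to 24596883 in neutrophils. Genes with at least 1 count numbered 10382, 10683 and 8564 in keratinocytes, against 11404, 5071 and 4556 in neutrophils. Neutrophil replicates 2 and 3 thus stood apart, each detecting fewer genes than any keratinocyte library although their totals exceeded 2 of the 3 keratinocyte totals. The difference in detected genes averaged 2866 (exact two-sided permutation test p = 0.4, where 3 against 3 cannot go below 0.1). Across the 15247 tested genes, Spearman correlations were 0.625 to 0.719 within keratinocytes, 0.441 to 0.583 within neutrophils and 0.236 to 0.325 between them, as a description over genes that share libraries. The libraries are amplified and carry no molecular identifiers, so limits drawn from a count of 0 cover counting error only, and fewer cells of a type cannot be told apart from less RNA per cell.

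The marker genes separated the libraries as labelled. The keratin krt4 had 48691, 20006 and 9511 CPM in keratinocytes, against 1.78, 0.782 and 0.0485 CPM in neutrophils (edgeR adjusted p = 0.00357). Since its promoter marked the picked cells, krt4 serves as a check of the labels and not as a finding, and the same holds for lyz. The claudin cldne, a tight junction strand protein of the outer skin layer, had 4728, 4201 and 7362 CPM in keratinocytes, against 0 counts in every neutrophil library, at least 114845-fold higher when the neutrophils are set to a floor of 3 counts over the group (edgeR adjusted p = 0.00978). The keratin krt5 had 26037, 10226 and 4374 CPM in keratinocytes, against 85.1, 0 and 0 CPM in neutrophils. The groups did not overlap, yet krt5 missed the threshold (edgeR adjusted p = 0.074), with its neutrophil signal confined to replicate 1 among the 3. On the neutrophil side, myeloperoxidase (mpx), which makes hypochlorous acid in granules, had 0 counts in every keratinocyte library, against 14875, 1907 and 3159 CPM in neutrophils, at least 82303-fold lower in keratinocytes by the same floor (edgeR adjusted p = 0.0104). Lysozyme (lyz), which cuts bacterial cell walls, had 0 counts in every keratinocyte library, against 2077, 1116 and 2276 CPM in neutrophils (edgeR adjusted p = 0.0105).

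**Figure D1:**
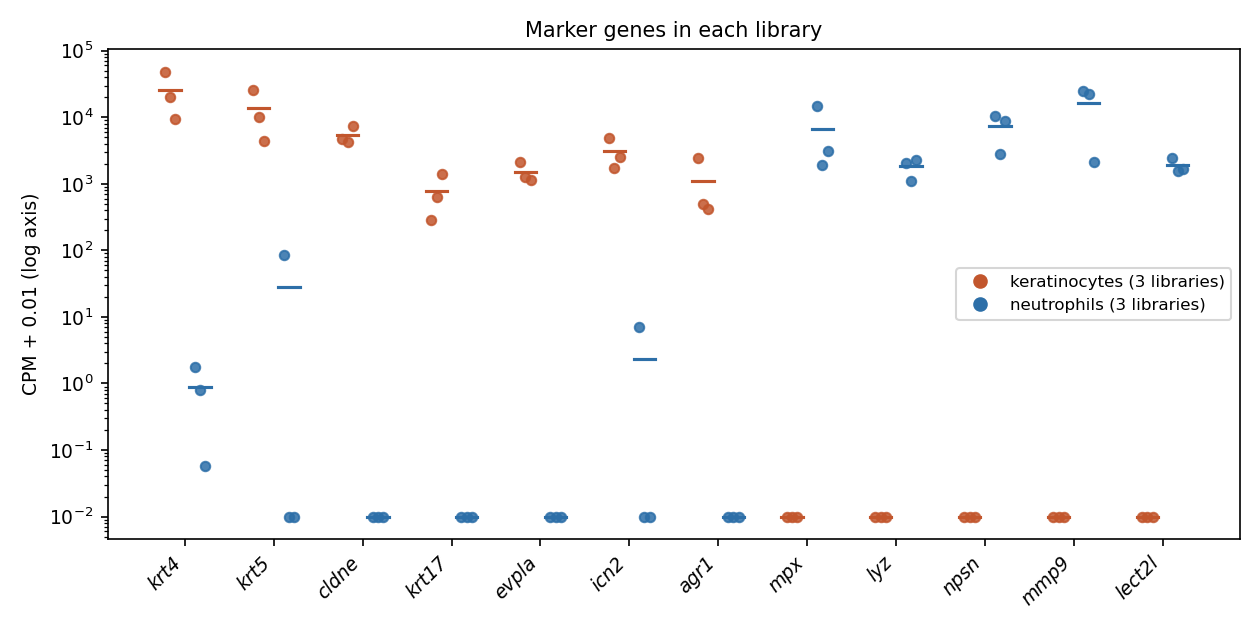
Level of 12 marker genes in each library, as CPM plus 0.01 on a log axis, with keratinocytes left and neutrophils right for each gene; points are libraries, bars are means of 3, and the lowest row is 0 counts. The keratinocyte libraries sit above the neutrophil libraries for the first 7 genes, and mpx, lyz, npsn, mmp9 and lect2l had 0 counts in every keratinocyte library.

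Layer markers and markers of other cells were read next. The 12 genes of the basal layer included the transcription factor tp63 and the basal integrins and laminins. Of these 12, 9 were at 0 counts in all keratinocyte libraries and 9 in all neutrophil libraries. In keratinocytes tp63 reached 3.01 CPM at most, and col17a1b had 8.82, 0 and 0 CPM. The basal keratin krt15 was the 1 member called. It had 0, 1082 and 645 CPM in keratinocytes, against 0.0423, 0 and 0 CPM in neutrophils (edgeR adjusted p = 0.0397). Keratinocyte replicate 1 lacked krt15 while replicates 2 and 3 did not. Of 11 tested superficial layer markers, 8 were higher in keratinocytes and all 11 lay higher in each keratinocyte library than in any neutrophil library. Over all tested genes, 3.00% were called higher and 15.9% lay higher in every keratinocyte library. The 8 include krt4, whose promoter marked the picked keratinocytes. The summed level of 22 macrophage and dendritic markers ran from 242 to 371 CPM in keratinocytes and from 79.9 to 165 CPM in neutrophils, with 13 and 15 of them at 0 counts. The sugar phosphate exchanger slc37a2 was the 1 of these called, with 213, 186 and 76.0 CPM in keratinocytes, against 0.0846, 0 and 0 CPM in neutrophils (edgeR adjusted p = 0.000733). The summed level of 30 T, B and NK cell markers ran from 3.13 to 30.9 CPM in keratinocytes and from 201 to 341 CPM in neutrophils. In neutrophils the 1 called member, si:ch211-122h15.4, had 83.3, 77.1 and 319 CPM (edgeR adjusted p = 0.000738). The uncalled tagapa had 254, 79.5 and 0 CPM there. Neither was confined to T cells: si:ch211-122h15.4 averaged 172 CPM in MLCs, 130 in cLCs and 680 in T cells. For tagapa these means were 1394, 906 and 514 CPM. Among 25 mucous, club cell and ionocyte markers, 17 were at 0 counts in keratinocytes, including the ionocyte factors foxi3a and foxi3b, and 2 were higher, the carbonic anhydrase ca2 and the mucin muc13a, which had 22.3, 422 and 393 CPM in keratinocytes, against 0 counts in every neutrophil library (edgeR adjusted p = 0.0198). The list's nccrp1 lay lower in every keratinocyte library than in any neutrophil library but was not called (edgeR adjusted p = 0.146). It had 99.7, 139 and 134 CPM in keratinocytes, against 1657, 1049.6 and 1079.9 CPM in neutrophils. The list's summed level ran from 1436 to 5672 CPM in keratinocytes and from 1269 to 2081 CPM in neutrophils. Of 13 erythrocyte, 15 neural and 28 mesenchymal, endothelial and pigment genes, 10, 12 and 25 were at 0 counts in keratinocytes, against 13, 14 and 22 in neutrophils. The part of these marker levels in the results was not tested.

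Across the transcriptome, keratinocytes exceeded neutrophils for 457 genes and fell below them for 282, of 15247 tested. These are 3.00% and 1.85% of the tested genes, 4.85% together. The test was edgeR's quasi-likelihood test over the 17 libraries, with a Benjamini-Hochberg adjusted p under 0.05 as the threshold for every call. Genes at 0 counts in all libraries of a group were common among the calls. Of the 457, 365 had none in neutrophils, and of the 282, 155 had none in keratinocytes. Among all 15247 tested genes, 4397 had none in neutrophils, 3331 none in keratinocytes and 1455 none in both. Groups did not overlap for 437 of the 457 and 226 of the 282, against 15.9% and 5.38% of all tested genes that lay higher in every keratinocyte or in every neutrophil library. The calls were made on these same libraries and so select for such separation, and these counts only describe the calls. The spread between replicates was wide, with a common biological coefficient of variation of 2.03, so that the smallest fitted log2 fold change called was 2.84 upward and 2.36 downward.

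These counts changed with the libraries that entered the fit, and the cause was not tested. With neutrophil replicate 1 left as the only neutrophil library, and assumed to vary like the other groups, 9 genes were higher and 161 lower (0.0590% and 1.06% of tested genes), so that higher genes made up 5.29% of calls in place of 61.8%. Of the main calls, 9 of the 457 and 151 of the 282 passed again. Replicate 1 also entered the fit that called these genes, so its direction, here and in the lists below, was partly fixed by that selection. It lay below every keratinocyte library for 437 of the 457 and above every keratinocyte library for 281 of the 282, and 370 of the 457 had 0 counts in it. In the junction, envelope, protease and epidermal transcription factor lists below, replicate 1 lay below every keratinocyte library for each gene called higher, and cdh1 was the 1 of them called with that library alone. Leaving out 1 library at a time gave 112 higher genes without neutrophil replicate 2, 136 without neutrophil replicate 3 and 301 without neutrophil replicate 1, and 220, 232 and 237 without keratinocyte replicates 1, 2 and 3.

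**Figure D2:**
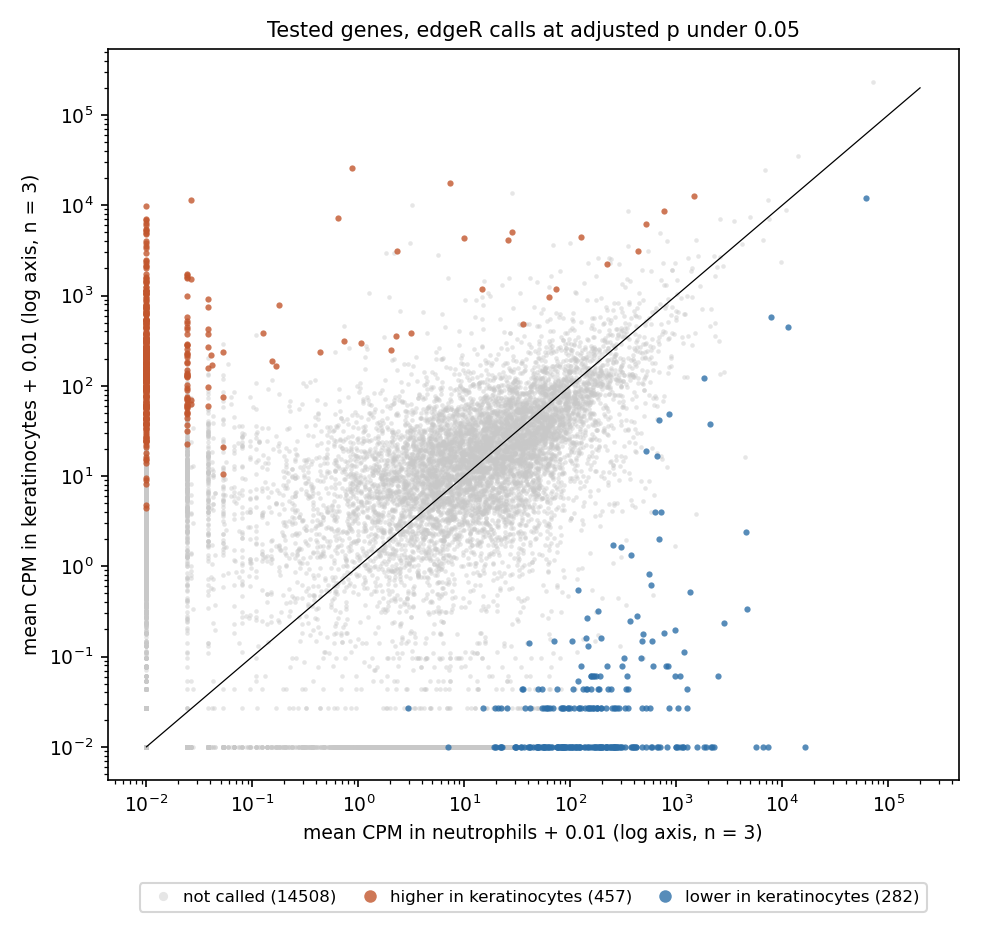
Mean CPM plus 0.01 of each of the 15247 tested genes in keratinocytes (vertical axis) against neutrophils (horizontal axis), both on log axes, n = 3 libraries each, with the line of equal levels. Orange points are the 457 genes called higher and blue points the 282 called lower in keratinocytes, many of them on the left and bottom edges, where the other cell type had 0 counts.

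**Figure D3:**
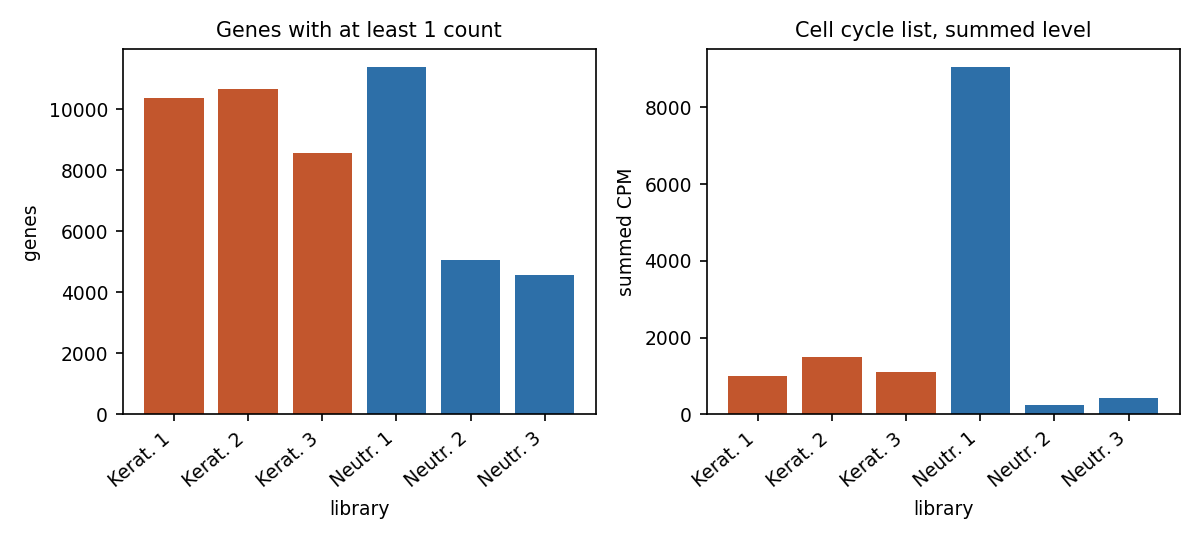
Genes with at least 1 count (left panel) and the summed CPM of the cell cycle list (right panel), a bar for each library, keratinocytes in orange and neutrophils in blue. Neutrophil replicates 2 and 3 detected 5071 and 4556 genes, and neutrophil replicate 1 held 9061 CPM of cell cycle genes.

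Per unit length, on the deposited TPM scale, the most abundant transcripts with a name were only partly the same in both cells. The claudin gene cldnb averaged 22738 ± 7511 TPM in keratinocytes and 11.9 ± 20.6 TPM in neutrophils (SD, n = 3 each), and krt4 had 31581, 10674 and 5254 TPM in keratinocytes, against 1.29, 0.766 and 0.0435 TPM in neutrophils. Mitochondrial mt-co2, a subunit of cytochrome oxidase, had 12917, 19393 and 36616 TPM in keratinocytes, against 15094, 18839.7 and 34263 TPM in neutrophils, and the groups overlapped. The cytoplasmic actin gene actb2 had 10407, 7425 and 6048 TPM in keratinocytes, against 77016, 39725 and 56613 TPM in neutrophils. The gene si:dkey-238c7.12 had 22472, 9258 and 22389 TPM in keratinocytes, against 16591, 27052 and 44475 TPM in neutrophils, and these groups overlapped. Thymosin tmsb4x, which holds actin monomers, had 109.6, 683 and 2715 TPM in keratinocytes, against 29146, 20765 and 21654 TPM in neutrophils. Ictacalcin (icn), a calcium-binding S100 protein of fish skin, was high in both, with 22926, 8429 and 12087 TPM in keratinocytes, against 4342, 5114 and 3402 TPM in neutrophils (edgeR adjusted p = 0.0981). The similarly named icn2 had 18278, 5291 and 7948 TPM in keratinocytes, against 28.9, 0 and 0 TPM in neutrophils (edgeR adjusted p = 0.048). An ID without a name, ENSDARG00000080337, took the highest mean TPM of both groups, with 53314, 248986 and 254857 TPM in keratinocytes, against 41846, 79435 and 156886 TPM in neutrophils.

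Keratins, the filaments of epithelial cells, were mostly on the keratinocyte side. Of 14 tested keratins (22 matched), 6 were higher and 1 lower, against 3.00% and 1.85% over all tested genes. The 6 include krt4, whose promoter marked the picked keratinocytes and which is a check of the labels only. Median log2 fold change was 10.52, or 9.81 with genes at 0 counts in a group set to the floor, against 0.17 and 0.19 over all tested genes. The type I keratin krt17 had 287, 642 and 1399 CPM in keratinocytes, against 0 counts in every neutrophil library, at least 16413-fold higher (edgeR adjusted p = 0.00415). Another, krt1-19d, had 9856, 1192 and 419 CPM in keratinocytes, against 0 counts in every neutrophil library, so replicate 1 held most of it (edgeR adjusted p = 0.00887). The abundant krt97 and krt91 did not overlap between groups either but missed the threshold (edgeR adjusted p = 0.0708 and 0.0958). The keratin-like gene zgc:77517 went the other way, with 0.205, 0 and 0 CPM in keratinocytes, against 345, 35.5 and 0 CPM in neutrophils (edgeR adjusted p = 0.0187). Keratin krt8, a keratin of simple epithelia, had 79.1, 379 and 376 CPM in keratinocytes, against 197, 4.48 and 0 CPM in neutrophils and overlapped. Keratins resemble each other in sequence, and how reads shared between copies were counted is not given in the sources used here.

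Tight junctions seal the sheet through strands of claudins. Of 31 tested tight junction genes (46 matched), 13 were higher and 0 lower, against 3.00% and 1.85% over all tested genes. The list's median log2 fold change was 11.97, or 9.76 with the floor. Higher in every keratinocyte library were 23, against 15.9% of all tested genes. The most abundant, cldnb, had 18206, 11853 and 22540.0 CPM in keratinocytes, against 22.0, 0 and 0 CPM in neutrophils (edgeR adjusted p = 0.0302). Claudin cldn23a had 2504, 2104 and 4186 CPM in keratinocytes, against 0 counts in every neutrophil library, at least 61991-fold higher (edgeR adjusted p = 0.00775). Claudin cldn7b had 838, 1430.2 and 1101 CPM in keratinocytes, against 0 counts in every neutrophil library (edgeR adjusted p = 0.0077). Every keratinocyte library lay far above every neutrophil library for these 3 claudins. Occludins, the 4-pass membrane proteins of the same strands, were present as a pair: oclnb had 1211, 835 and 919.9 CPM in keratinocytes, against 0.0423, 0 and 0 CPM in neutrophils (edgeR adjusted p = 0.00224). Its paralog oclna had 599, 520.1 and 545 CPM in keratinocytes, against 0 counts in every neutrophil library (edgeR adjusted p = 0.0156). The scaffold tjp3, of the ZO family that ties strands to actin, had 253, 153 and 283 CPM in keratinocytes, against 0.0423, 0 and 0 CPM in neutrophils (edgeR adjusted p = 0.016). Proteins of the corners where 3 cells meet were called too: ildr1a had 214, 150.3 and 339.7 CPM in keratinocytes, against 0.127, 0 and 0 CPM in neutrophils (edgeR adjusted p = 0.0122). The angulin lsr had 298, 151 and 84.7 CPM in keratinocytes, against 0 counts in every neutrophil library (edgeR adjusted p = 0.0166). The junction adhesion molecule f11r.1, by contrast, had 1125, 1287 and 865 CPM in keratinocytes, against 192, 59.8 and 80.6 CPM in neutrophils, and was not called (edgeR adjusted p = 0.27).

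Adherens junctions and desmosomes followed the same direction. Higher were 4 of 15 and 5 of 12 tested members, against 3.00% over all tested genes, and 0 were lower in each. E-cadherin (cdh1), the calcium-dependent adhesion receptor of epithelia, had 1243, 1001 and 1234 CPM in keratinocytes, against 0 counts in every neutrophil library, at least 24516-fold higher (edgeR adjusted p = 0.000251). It was among the 9 genes still called with neutrophil replicate 1 alone (edgeR adjusted p = 0.0388 there). The epithelial adhesion molecule epcam had 11630.0, 3123 and 6727 CPM in keratinocytes, against 1.90, 0 and 0 CPM in neutrophils (edgeR adjusted p = 0.0187). Its low neutrophil signal lay in replicate 1. The desmosomal plaque protein plakophilin 3 (pkp3a) had 3164, 884 and 808 CPM in keratinocytes, against 0 counts in every neutrophil library, at least 34237-fold higher (edgeR adjusted p = 0.0011). The desmosomal cadherin dsg2.1 had 1673, 1029.6 and 789 CPM in keratinocytes, against 0 counts in every neutrophil library (edgeR adjusted p = 0.00379). Desmoplakin (dspa), which links the plaque to keratin, had 1269, 218 and 335 CPM in keratinocytes, against 0 counts in every neutrophil library (edgeR adjusted p = 0.00392). Plakoglobin (jupa), shared by both junction types, had 2845, 680.2 and 1121 CPM in keratinocytes, against 79.5, 0 and 0 CPM in neutrophils and did not pass (edgeR adjusted p = 0.108). The bounded median log2 fold change was 5.87 for adherens junctions and 8.79 for desmosomes.

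Envelope and barrier genes gave the highest number of epithelial calls, 17 of 33 tested higher and 1 lower (40 matched). The shares over all tested genes were 3.00% and 1.85%. Median log2 fold change was 11.62, or 11.43 with the floor. Envoplakin (evpla), a scaffold laid under the membrane during envelope assembly, had 2117, 1284 and 1153 CPM in keratinocytes, against 0 counts in every neutrophil library, at least 32112-fold higher (edgeR adjusted p = 0.00392). Its partner periplakin (ppl) had 3316, 743 and 697 CPM in keratinocytes, against 0.0423, 0 and 0 CPM in neutrophils (edgeR adjusted p = 0.0231). The transglutaminase tgm1, which cross-links such proteins, had 294, 134 and 88.9 CPM in keratinocytes, against 0 counts in every neutrophil library (edgeR adjusted p = 0.0207). For each of these 3 genes replicate 1 was the highest keratinocyte library, and the groups did not overlap. Sciellin (scel), another envelope precursor, had 1062, 485 and 314 CPM in keratinocytes, against 0 counts in every neutrophil library (edgeR adjusted p = 0.026). The lipid transporter abca12, needed for the skin lipid barrier in mammals, had 80.5, 66.7 and 244 CPM in keratinocytes, against 0 counts in every neutrophil library (edgeR adjusted p = 0.0447). Fatty acid elongases split by paralog. On the keratinocyte side, elovl7b had 756, 552 and 1436 CPM in keratinocytes, against 0.0846, 0 and 0 CPM in neutrophils (edgeR adjusted p = 0.0256). The related elovl1a had 849.5, 306 and 427 CPM in keratinocytes, against 0 counts in every neutrophil library (edgeR adjusted p = 0.0231). Elongase elovl1b was the list's lower gene, with 2.15, 4.71 and 43.7 CPM in keratinocytes, against 487, 765 and 708 CPM in neutrophils (edgeR adjusted p = 0.0205). A related elongase outside this list, elovl5, also lay lower, with 0 counts in every keratinocyte library, against 242, 131 and 415 CPM in neutrophils (edgeR adjusted p = 0.00593). Annexins anxa1b, anxa1c and anxa2a, which bind membranes in the presence of calcium, were higher, anxa1b with 1396, 1077 and 689 CPM in keratinocytes, against 0 counts in every neutrophil library (edgeR adjusted p = 0.00392). By contrast s100a10b, the partner of annexin 2, had 2587, 1835 and 1145 CPM in keratinocytes, against 288, 1314 and 142 CPM in neutrophils, with neutrophil replicate 2 inside the keratinocyte range (edgeR adjusted p = 0.719).

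Proteases of the epithelial surface and their inhibitors were higher as well for 6 of 20 tested, against 3.00% over all tested genes, with 0 lower. The list's median log2 fold change was 8.41, or 7.12 with the floor. The Kunitz inhibitor spint2 had 1438, 1877 and 1361 CPM in keratinocytes, against 0 counts in every neutrophil library, at least 32961-fold higher (edgeR adjusted p = 0.00271). Its relative spint1b had 175, 88.7 and 30.1 CPM in keratinocytes, against 0 counts in every neutrophil library (edgeR adjusted p = 0.0288). Matriptase (st14a), a membrane serine protease that these inhibitors restrain, had 351, 206 and 218 CPM in keratinocytes, against 0.0423, 0 and 0 CPM in neutrophils (edgeR adjusted p = 0.016), with st14b and tmprss4a also called. Groups did not overlap for these protease genes. The calpain capn9 had 1444, 331 and 411 CPM in keratinocytes, against 0 counts in every neutrophil library (edgeR adjusted p = 0.0182). Of 11 tested ErbB and FGF receptor signalling genes 0 were called in either direction, although 7 lay higher in each keratinocyte library and DESeq2 called 8 higher. Over all tested genes DESeq2 called 17.1% higher and 8.70% lower, and 15.9% lay higher in each keratinocyte library.

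Regulators of the epidermal programme accounted for 8 higher calls among 32 tested epidermal transcription factors, against 3.00% over all tested genes, with 0 lower. The ETS factor elf3, which in mammals acts in epithelial differentiation, had 1299, 1166 and 1836 CPM in keratinocytes, against 0 counts in every neutrophil library, at least 30328-fold higher (edgeR adjusted p = 0.00406). The zinc finger factor klf5l had 251, 98.5 and 204 CPM in keratinocytes, against 0 counts in every neutrophil library (edgeR adjusted p = 0.00774). The AP-2 family factor tfap2c had 135, 171 and 64.2 CPM in keratinocytes, against 0 counts in every neutrophil library (edgeR adjusted p = 0.0145). The zinc finger repressor ovol1a had 214, 158 and 53.5 CPM in keratinocytes, against 0 counts in every neutrophil library (edgeR adjusted p = 0.0257). Also called were foxq1a, dlx3b and klf4, all at 0 counts in the neutrophils. The repressor gene prdm1a had 0 counts in every keratinocyte library, against 703, 0 and 401 CPM in neutrophils, and was not called (edgeR adjusted p = 0.0514). Median log2 fold change was 10.56, 7.99 with the floor.

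Some of the most abundant keratinocyte genes lay outside the keratin, junction, envelope, protease and epidermal transcription factor lists. Of the genes below, agr1 was in the superficial marker list and ca2 in the mucous, club cell and ionocyte list. The inducible nitric oxide synthase nos2a, which makes nitric oxide in inflamed tissue, had 15460.0, 16372 and 2363 CPM in keratinocytes, against 0, 0 and 0.0485 CPM in neutrophils (edgeR adjusted p = 0.0203), so keratinocyte replicate 3 was the lowest yet far above all neutrophils. The pleckstrin homology gene phlda2 had 6596, 2842 and 9639.6 CPM in keratinocytes, against 0 counts in every neutrophil library, at least 134486-fold higher (edgeR adjusted p = 0.0077). The lipogenesis regulator mid1ip1a had 4969, 4739 and 4625 CPM in keratinocytes, against 0 counts in every neutrophil library, at least 101041-fold higher and nearly level among replicates (edgeR adjusted p = 0.00049). The heme-binding family gene soul2 had 1856, 3443 and 1887 CPM in keratinocytes, against 0 counts in every neutrophil library (edgeR adjusted p = 0.00681). The carbonic anhydrase ca2 had 5095, 622 and 326 CPM in keratinocytes, against 0 counts in every neutrophil library (edgeR adjusted p = 0.00271). The gene ogfrl2 had 437, 13975 and 836 CPM in keratinocytes, against 38.7, 0.104 and 45.5 CPM in neutrophils (edgeR adjusted p = 0.0235), so replicate 1 led for ca2 and replicate 2 for ogfrl2. The secreted-pathway protein agr1, a marker of the outer layer, had 2424, 504 and 425 CPM in keratinocytes, against 0 counts in every neutrophil library (edgeR adjusted p = 0.00197).

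The MHC class II pathway, which loads peptides for CD4 T cells, had 6 of 17 tested genes higher in keratinocytes and 0 lower. The shares over all tested genes were 3.00% and 1.85%, and the list's median log2 fold change was 0.92. The list was mixed, with 10 fitted log2 fold changes above 0 and 6 below. DESeq2 called 7 of its genes higher and 3 lower, against 17.1% and 8.70% over all tested genes. The invariant chain cd74a had 4197, 4230.2 and 4464 CPM in keratinocytes, against 29.5, 0 and 0 CPM in neutrophils, with a log2 fold change of 8.77 ± 1.87 (SE, edgeR adjusted p = 0.00887). Its paralog cd74b had 4708, 3549 and 4168 CPM in keratinocytes, against 54.4, 0 and 23.6 CPM in neutrophils (7.32 ± 1.56, edgeR adjusted p = 0.00887). Keratinocyte replicates lay close together here, and neutrophil replicate 2 held 0 counts of both. The class II master regulator ciita had 28.3, 28.1 and 70.8 CPM in keratinocytes, against 0 counts in every neutrophil library (edgeR adjusted p = 0.0212). Of 2 IDs that carry the name mhc2b, a class II beta chain, the called one had 49.5, 73.5 and 52.7 CPM in keratinocytes, against 0 counts in every neutrophil library (edgeR adjusted p = 0.02). The more abundant had 3143, 4664 and 3577 CPM in keratinocytes, against 9.26, 0 and 0 CPM in neutrophils, without overlap but not called (edgeR adjusted p = 0.0884). The lysosomal thiol reductase ifi30, which unfolds antigens, had 266, 466 and 731 CPM in keratinocytes, against 37.7, 48.3 and 22.0 CPM in neutrophils (edgeR adjusted p = 0.0201). Levels of cd74a were higher still in the mpeg1-line cells, at 18418 to 91935 CPM in cLCs and 12528 to 30889.6 CPM in MLCs. In keratinocytes the macrophage genes mpeg1.1 and mpeg1.2 stood at 0.359, 0 and 0 CPM and 3.08, 15.7 and 2.00 CPM, and csf1ra, marco and the complement genes c1qa and c1qc were at 0 counts. Of the 22 macrophage and dendritic markers, 13 were at 0 counts in keratinocytes, but slc37a2 had 213, 186 and 76.0 CPM. The summed level of the 22 ran from 242 to 371 CPM in keratinocytes. In keratinocyte replicate 3, with slc37a2 at 76.0 CPM, most of that sum lay in other members of the list. The part of such cells in the class II levels was not tested. Of the class II calls, cd74a was also made with neutrophil replicate 1 alone. Reads of the class II copies may be shared between them.

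Class I antigen presentation genes were higher in keratinocytes for 4 of 26 tested and lower for 0, against 3.00% and 1.85% over all tested genes. Beta-2 microglobulin (b2m), the light chain, had 8918, 22943 and 5759.6 CPM in keratinocytes, against 2131, 428 and 1878 CPM in neutrophils (log2 fold change 3.08 ± 0.83, edgeR adjusted p = 0.0349). The heavy chain gene mhc1zba had 9857, 11631 and 4476 CPM in keratinocytes, against 827, 592 and 899.6 CPM in neutrophils (3.49 ± 0.78, edgeR adjusted p = 0.0118). The peptide transporter tap2a had 30.1, 55.9 and 60.4 CPM in keratinocytes, against 0.0423, 0 and 0 CPM in neutrophils (edgeR adjusted p = 0.0325). The b2ml gene, a b2m copy, had 2456, 3492 and 3479 CPM in keratinocytes, against 359, 656 and 299 CPM in neutrophils (edgeR adjusted p = 0.0417). None of these 4 overlapped between groups, while the median log2 fold change of the list was 1.33. Interferon response genes gave 2 calls among 27, or 7.41%, against 4.85% over all tested genes. They were ifi30 and the interferon regulator irf7, which had 383, 2346 and 837 CPM in keratinocytes, against 94.7, 19.5 and 103 CPM in neutrophils (edgeR adjusted p = 0.0353). The antiviral rsad2 had 0, 399.7 and 98.0 CPM in keratinocytes, against 144, 0 and 126 CPM in neutrophils. The ubiquitin-like isg15 had 456, 271 and 311 CPM in keratinocytes, against 0, 0 and 243 CPM in neutrophils, and neither was called. The cytosolic DNA signalling adaptor tmem173 (STING) had 199.6, 197 and 135 CPM in keratinocytes, against 0 counts in every neutrophil library, at least 3753-fold higher (edgeR adjusted p = 0.00696), and was the 1 higher gene of 39 tested innate sensors. That list also had 1 lower gene, and its 5.13% called lay near the 4.85% over all tested genes.

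Immediate early genes, induced rapidly when cells are stimulated, had 5 of 56 tested members higher in keratinocytes and 0 lower (median log2 fold change 1.98). The 5 are 8.93% of the list, against 3.00% higher over all tested genes. Higher in every keratinocyte library were 27 members, against 15.9% of all tested genes. The AP-1 subunit junbb had 6478, 3995 and 7915 CPM in keratinocytes, against 552, 175 and 813 CPM in neutrophils (log2 fold change 3.58 ± 0.87, edgeR adjusted p = 0.0191). Its partner jun had 2581, 4582 and 6056 CPM in keratinocytes, against 323, 3.18 and 50.4 CPM in neutrophils (5.13 ± 1.35, edgeR adjusted p = 0.0295). The MAP kinase phosphatase dusp5 had 2682, 1556 and 2422 CPM in keratinocytes, against 434, 60.4 and 164 CPM in neutrophils (3.34 ± 0.96, edgeR adjusted p = 0.0463). The other 2 called were csrnp1a and the nuclear receptor nr4a3. For fosab, the values were 6105, 3874 and 4961 CPM in keratinocytes, against 427, 177 and 1499 CPM in neutrophils, and for egr1 3418, 1155 and 2266 CPM in keratinocytes, against 171, 0 and 272 CPM in neutrophils; neither passed (edgeR adjusted p = 0.0855 and 0.141). The heat shock gene hsp70.2 was uneven, at 3.59, 688 and 419 CPM in keratinocytes, against 0, 0 and 0.291 CPM in neutrophils (edgeR adjusted p = 0.0884).

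**Figure D4:**
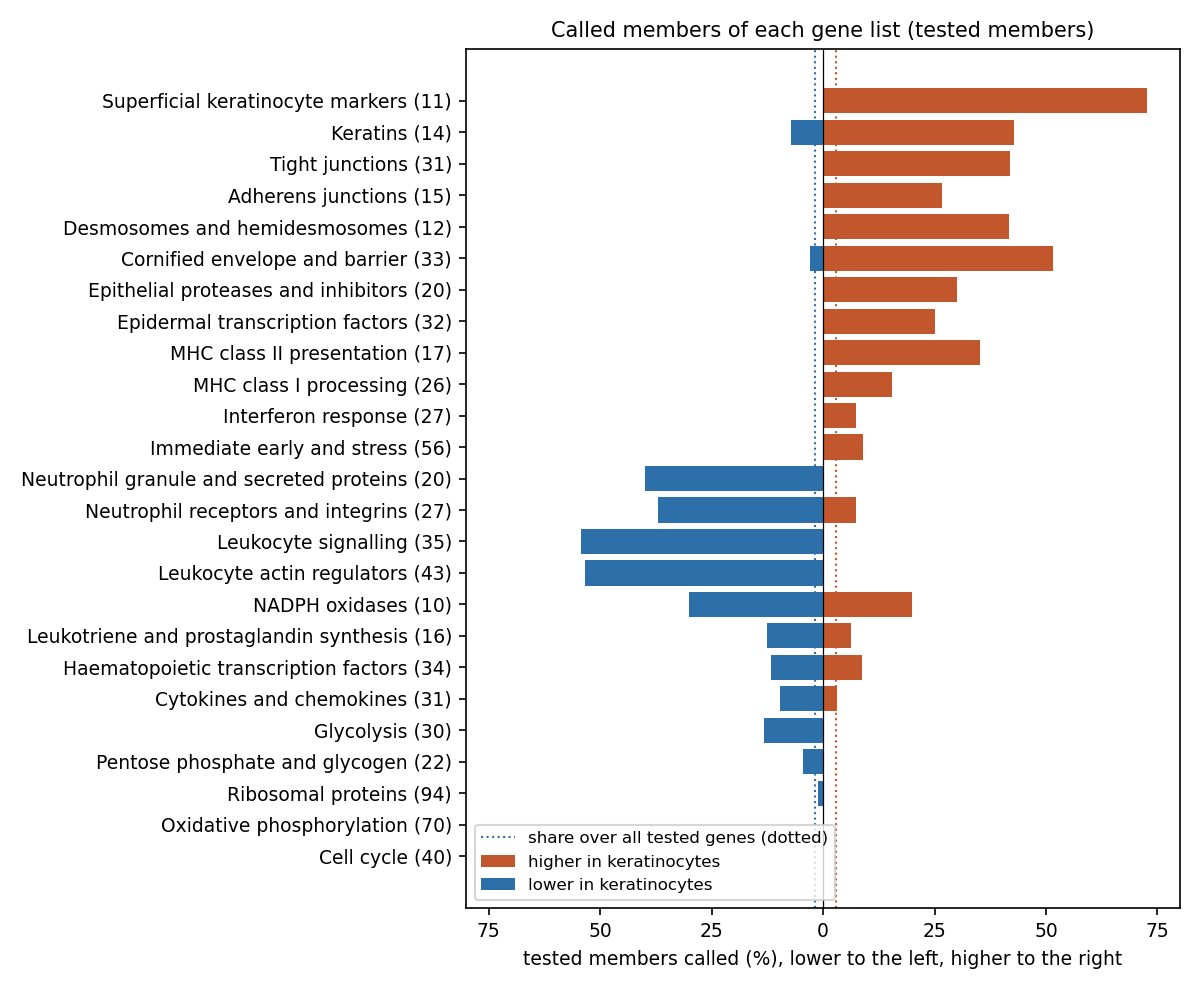
Share of tested members of 25 gene lists called higher (orange, right) or lower (blue, left) in keratinocytes than in neutrophils, with the number tested in brackets and dotted lines at 3.00% and 1.85%, the shares over all tested genes. Junction, keratin and envelope lists extend to the right, actin, signalling and granule lists to the left, and the cell cycle and oxidative phosphorylation lists have no call.

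Granule and secreted proteins, the antimicrobial store of the neutrophil, had 8 of 20 tested members lower in keratinocytes and 0 higher (26 matched). The shares over all tested genes were 1.85% lower and 3.00% higher. The 8 include lyz, whose promoter marked the picked neutrophils and which is a check of the labels only. All 8 had 0 counts in every keratinocyte library, and mpx was the 1 called with neutrophil replicate 1 alone. The gelatinase mmp9, which degrades basement membrane collagen, had 0 counts in every keratinocyte library, against 24866, 22203 and 2093 CPM in neutrophils, at least 202909.6-fold lower (edgeR adjusted p = 0.0142). The collagenase mmp13a had 0 counts in every keratinocyte library, against 1850.4, 14669 and 419 CPM in neutrophils (edgeR adjusted p = 0.0189), with neutrophil replicate 2 the highest. The astacin-type metalloprotease npsn (nephrosin) had 0 counts in every keratinocyte library, against 10425, 2818 and 8839.9 CPM in neutrophils, at least 91144-fold lower (edgeR adjusted p = 0.0145). The chemotactic protein gene lect2l had 0 counts in every keratinocyte library, against 2441, 1575 and 1653 CPM in neutrophils, at least 23395-fold lower and even among neutrophils (edgeR adjusted p = 0.0205). The carboxypeptidase cpa5 had 0 counts in every keratinocyte library, against 2227, 519.8 and 207 CPM in neutrophils (edgeR adjusted p = 0.0214). The sheddase adam8a had 0 counts in every keratinocyte library, against 1834, 1096 and 518 CPM in neutrophils (edgeR adjusted p = 0.0273). Serglycin (srgn), the proteoglycan that packs granules, had 0.154, 2.75 and 45.8 CPM in keratinocytes, against 6758, 3895 and 2823 CPM in neutrophils and was just above the threshold (edgeR adjusted p = 0.0531). Median log2 fold change was -13.93, or -10.59 with the floor.

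Receptors and adhesion molecules of neutrophils were lower in keratinocytes for 10 of 27 tested (median log2 fold change -8.47, -7.80 with the floor), and 7 were called with neutrophil replicate 1 alone. The chemokine receptor cxcr4b, which retains leukocytes where its ligand is made, had 0.564, 0 and 0 CPM in keratinocytes, against 1768, 291 and 853 CPM in neutrophils (edgeR adjusted p = 0.000222). The interleukin 6 receptor gene il6r had 0 counts in every keratinocyte library, against 3997, 1170.2 and 1647 CPM in neutrophils, at least 28126-fold lower (edgeR adjusted p = 0.0177). The Fc receptor chain fcer1gl, which carries an activation motif, had 1.54, 0 and 0 CPM in keratinocytes, against 1265, 1105 and 1683 CPM in neutrophils (edgeR adjusted p = 0.0064). Its relative fcer1g had 0 counts in every keratinocyte library, against 30.3, 18 and 116 CPM in neutrophils (edgeR adjusted p = 0.00453). Keratinocyte reads of these receptors, where there were any, lay in replicate 1. The beta-2 integrin itgb2, used by leukocytes to adhere to vessels and targets, had 0.205, 0 and 5.80 CPM in keratinocytes, against 1232, 249 and 581 CPM in neutrophils (edgeR adjusted p = 0.00915). The list also held 2 genes that were higher in keratinocytes. Over all tested genes 1.85% were lower and 3.00% higher. The tetraspanin cd9b had 1961, 1675 and 1554 CPM in keratinocytes, against 0.0423, 0 and 0 CPM in neutrophils (edgeR adjusted p = 0.00379). The hyaluronan receptor cd44a had 196, 174 and 82.7 CPM in keratinocytes, against 0 counts in every neutrophil library (edgeR adjusted p = 0.0103).

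Leukocyte signalling genes had 19 of 35 tested lower in keratinocytes and 0 higher, and 17 were called with neutrophil replicate 1 as the only neutrophil library. The adaptor fybb, which links receptors to integrin activation, had 0 counts in every keratinocyte library, against 310.3, 359 and 321 CPM in neutrophils, at least 4088-fold lower and nearly equal in the 3 neutrophil libraries (edgeR adjusted p = 7.46e-05). The tyrosine phosphatase CD45 (ptprc) had 0.0513, 0 and 0 CPM in keratinocytes, against 677, 516 and 516 CPM in neutrophils (edgeR adjusted p = 0.000393). The Src-family kinase hck had 0.154, 0 and 0 CPM in keratinocytes, against 446, 374 and 207 CPM in neutrophils (edgeR adjusted p = 0.000239). The lysosomal membrane protein laptm5 had 0.205, 0 and 0 CPM in keratinocytes, against 652, 429 and 738 CPM in neutrophils (edgeR adjusted p = 7.46e-05). The few keratinocyte reads of these genes lay in replicate 1. The inositol phosphatase inpp5d, which damps the same pathways, had 0.205, 0 and 0 CPM in keratinocytes, against 770.0, 86.9 and 65.4 CPM in neutrophils (edgeR adjusted p = 0.000781). Median log2 fold change was -11.44, -9.15 with the floor. The 19 lower calls are to be read against 1.85% lower over all tested genes.

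Actin regulators made up the list with the most lower calls, 23 of 43 tested, with 0 higher, and 18 were called with neutrophil replicate 1 alone. The haematopoietic GTPase rac2, which drives neutrophil migration and the oxidase, had 0.0513, 0 and 0 CPM in keratinocytes, against 1188, 936 and 1025 CPM in neutrophils, and held the smallest adjusted p of all tested genes (edgeR adjusted p = 1.59e-05). The actin bundler L-plastin (lcp1) had 0.975, 0 and 0 CPM in keratinocytes, against 7822, 3355 and 2769.8 CPM in neutrophils (edgeR adjusted p = 0.000139). Coronin 1A (coro1a), a regulator of Arp2/3, had 0.667, 0 and 0 CPM in keratinocytes, against 5364, 1152 and 2019 CPM in neutrophils (edgeR adjusted p = 0.000223). None of these 3 exceeded 1 CPM in a keratinocyte library. The list's median log2 fold change was -6.32. Its lower calls were 53.5% of those tested, against 54.3% in the leukocyte signalling list and 1.85% over all tested genes. The Arp2/3 subunit arpc1b, of the complex that branches actin, had 1.13, 0 and 6.0 CPM in keratinocytes, against 7339.7, 2313 and 4059 CPM in neutrophils (edgeR adjusted p = 0.000319). The subunits arpc2 and arpc4 had counts in both cells. Both lay lower in every keratinocyte library than in any neutrophil library but were not called. Subunit arpc2 had 291, 419 and 189 CPM in keratinocytes, against 1871, 795 and 832 CPM in neutrophils (edgeR adjusted p = 0.152). Subunit arpc4 had 116, 104 and 102 CPM in keratinocytes, against 651, 352 and 291 CPM in neutrophils (edgeR adjusted p = 0.185). Profilin (pfn1), which feeds monomers to growing filaments, had 179, 453 and 714 CPM in keratinocytes, against 19576, 3349 and 11344 CPM in neutrophils (log2 fold change -4.67 ± 0.84, edgeR adjusted p = 0.00224). Thymosin tmsb4x had 46.3, 351 and 1348 CPM in keratinocytes, against 10981, 5808 and 6617 CPM in neutrophils (-3.75 ± 0.99, edgeR adjusted p = 0.0307). Actin itself split by copy: actb2 had 14083, 12214 and 9608 CPM in keratinocytes, against 92881, 35563 and 55377 CPM in neutrophils (-2.36 ± 0.68, edgeR adjusted p = 0.0463). The other copy, actb1, had 10573, 9942 and 5807 CPM in keratinocytes, against 22235, 3796 and 6884 CPM in neutrophils and overlapped (edgeR adjusted p = 0.966). These actin copies are close in sequence, so their counts may share reads.

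Oxidase subunits divided by cell. The phagocyte oxidase organiser ncf1 had 0.103, 0 and 0 CPM in keratinocytes, against 883, 2366 and 510.0 CPM in neutrophils (edgeR adjusted p = 0.0114). The catalytic subunit cybb had 0.103, 0 and 15.8 CPM in keratinocytes, against 636, 634 and 186 CPM in neutrophils, without overlap but not called (edgeR adjusted p = 0.0993). The shared membrane subunit cyba was present in both, with 199, 438 and 485 CPM in keratinocytes, against 429.8, 1499 and 269 CPM in neutrophils (edgeR adjusted p = 0.647). Of the NOX1-type oxidase, the catalytic nox1 had 128, 467 and 208 CPM in keratinocytes, against 0 counts in every neutrophil library, at least 5668-fold higher (edgeR adjusted p = 0.0269). Its organiser noxo1a had 240.2, 855 and 237 CPM in keratinocytes, against 0 counts in every neutrophil library, at least 9389-fold higher (edgeR adjusted p = 0.0153). Of 10 tested oxidase genes, 2 were higher and 3 lower, against 3.00% and 1.85% over all tested genes, with rac2 among the lower ones.

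Lipid mediator synthesis had calls in both directions, with 1 of 16 tested genes higher and 2 lower. These are 18.75% together, against 4.85% over all tested genes (3.00% higher and 1.85% lower). The prostaglandin synthase ptgs2a, known as COX-2, had 83.6, 116 and 887 CPM in keratinocytes, against 0 counts in every neutrophil library, at least 7658-fold higher (edgeR adjusted p = 0.0355). Leukotriene synthesis was on the neutrophil side: 5-lipoxygenase (alox5a) had 0 counts in every keratinocyte library, against 238, 158 and 251 CPM in neutrophils (edgeR adjusted p = 0.0356), and its activating protein alox5ap had 0.205, 0 and 0 CPM in keratinocytes, against 576, 1113 and 721 CPM in neutrophils (edgeR adjusted p = 0.045). The last enzyme towards leukotriene B4, lta4h, had 11.4, 0 and 0 CPM in keratinocytes, against 2076, 414 and 2158 CPM in neutrophils and did not pass (edgeR adjusted p = 0.107). Among cytokines and chemokines, 1 of 31 tested was higher and 3 lower, or 12.9% together, to be read against the same shares over all tested genes. Interleukin 1 beta (il1b) had 0.154, 0 and 0 CPM in keratinocytes, against 2524, 3507 and 1451 CPM in neutrophils (edgeR adjusted p = 0.00392). The tumour necrosis factor gene tnfb had 0.256, 0 and 0 CPM in keratinocytes, against 1139.7, 186 and 82.8 CPM in neutrophils (edgeR adjusted p = 0.000742). Interleukin 16 (il16) had 0 counts in every keratinocyte library, against 454, 254 and 66.1 CPM in neutrophils (edgeR adjusted p = 0.0145). The chemokine ccl20a.3 was on the keratinocyte side, with 112, 3.14 and 62.3 CPM in keratinocytes, against 0 counts in every neutrophil library (edgeR adjusted p = 0.0179).

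Haematopoietic transcription factors gave 4 lower and 3 higher calls among 34 tested, or 20.6% together. Over all tested genes 1.85% were lower and 3.00% higher. The PU.1 gene spi1b, a master regulator of myeloid cells, had 0.308, 0 and 0 CPM in keratinocytes, against 1555, 757 and 1239 CPM in neutrophils (edgeR adjusted p = 0.0287). Its paralog spi1a had 0.410, 0 and 0 CPM in keratinocytes, against 473, 688 and 261 CPM in neutrophils (edgeR adjusted p = 0.00647). Ikaros (ikzf1) and ets1 were the other 2 lower genes. Higher in keratinocytes were klf2a, with 357, 239 and 412 CPM in keratinocytes, against 0 counts in every neutrophil library (edgeR adjusted p = 0.0262), cebpd, with 59.0, 123 and 187 CPM in keratinocytes, against 0 counts in every neutrophil library (edgeR adjusted p = 0.0354), and mafba. Unlike cebpd, the C/EBP family genes cebpa and cebpb were not called: cebpa had 397, 282 and 1346 CPM in keratinocytes, against 925, 787 and 1254 CPM in neutrophils (edgeR adjusted p = 0.993). The related cebpb had 1797, 1518 and 3821 CPM in keratinocytes, against 16431, 10554 and 2152 CPM in neutrophils (edgeR adjusted p = 0.406), with overlap for both.

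Metabolic lists held fewer calls, to be read against 3.00% higher and 1.85% lower over all tested genes. Glycolysis had 4 of 30 tested lower in keratinocytes and 0 higher (median log2 fold change -2.52). In this list 14 genes lay lower in every keratinocyte library than in any neutrophil library, against 5.38% of all tested genes. Lactate dehydrogenase (ldha) had 0.0513, 0 and 0 CPM in keratinocytes, against 193, 1359.5 and 12.6 CPM in neutrophils (edgeR adjusted p = 0.000751). The glucose transporter slc2a3b had 0.0513, 0 and 0 CPM in keratinocytes, against 239, 118 and 472 CPM in neutrophils (edgeR adjusted p = 0.0323). The phosphofructokinase pfkpa and the aldolase aldocb were the other 2. The pentose phosphate pathway, which supplies NADPH, had 1 call in 22, or 4.55%, near the 4.85% called over all tested genes. This was the transketolase tktb, with 141, 153 and 68.4 CPM in keratinocytes, against 3155, 847 and 1531 CPM in neutrophils (log2 fold change -3.93 ± 1.12, edgeR adjusted p = 0.0437). Transaldolase (taldo1) had 68.4, 62.4 and 100.1 CPM in keratinocytes, against 887, 899 and 519 CPM in neutrophils, without overlap but not called (edgeR adjusted p = 0.0756). The ornithine decarboxylase odc1, the first enzyme of polyamine synthesis, had 0 counts in every keratinocyte library, against 2073, 3918 and 592 CPM in neutrophils, at least 27172-fold lower (edgeR adjusted p = 3.33e-05). Of 70 tested oxidative phosphorylation genes edgeR called 0, with 3 at an unadjusted p under 0.05, against 4494 of all 15247 tested genes. DESeq2 called 3 of the 70 lower and 0 higher, against 8.70% and 17.1% over all tested genes. The median log2 fold change of the 70 was -0.24. Among 94 genes with ribosomal protein names the 1 call was rps6ka1, a kinase and not a ribosomal protein. Of the 94, 78 had a fitted log2 fold change below 0 and 13 above (median -0.73). Lower in every keratinocyte library than in any neutrophil library were 21, against 5.38% of all tested genes. The other way round were 3, against 15.9%. Of 31 tested antioxidant genes 9.68% were called, against 4.85% over all tested genes. They were 2 higher, the glutathione transferase mgst1.2 and the quinone reductase nqo1, and 1 lower, the glutathione peroxidase gpx1a, with 51.7, 20.4 and 52.5 CPM in keratinocytes, against 1215, 351 and 475 CPM in neutrophils (edgeR adjusted p = 0.0465). Lysosomal genes had 3 of 45 higher, or 6.67%, against 3.00% over all tested genes. These were the cathepsins ctsh and ctsk and the granulin grna, the first with 39.9, 167 and 164 CPM in keratinocytes, against 0 counts in every neutrophil library (edgeR adjusted p = 0.000232).

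**Figure D5:**
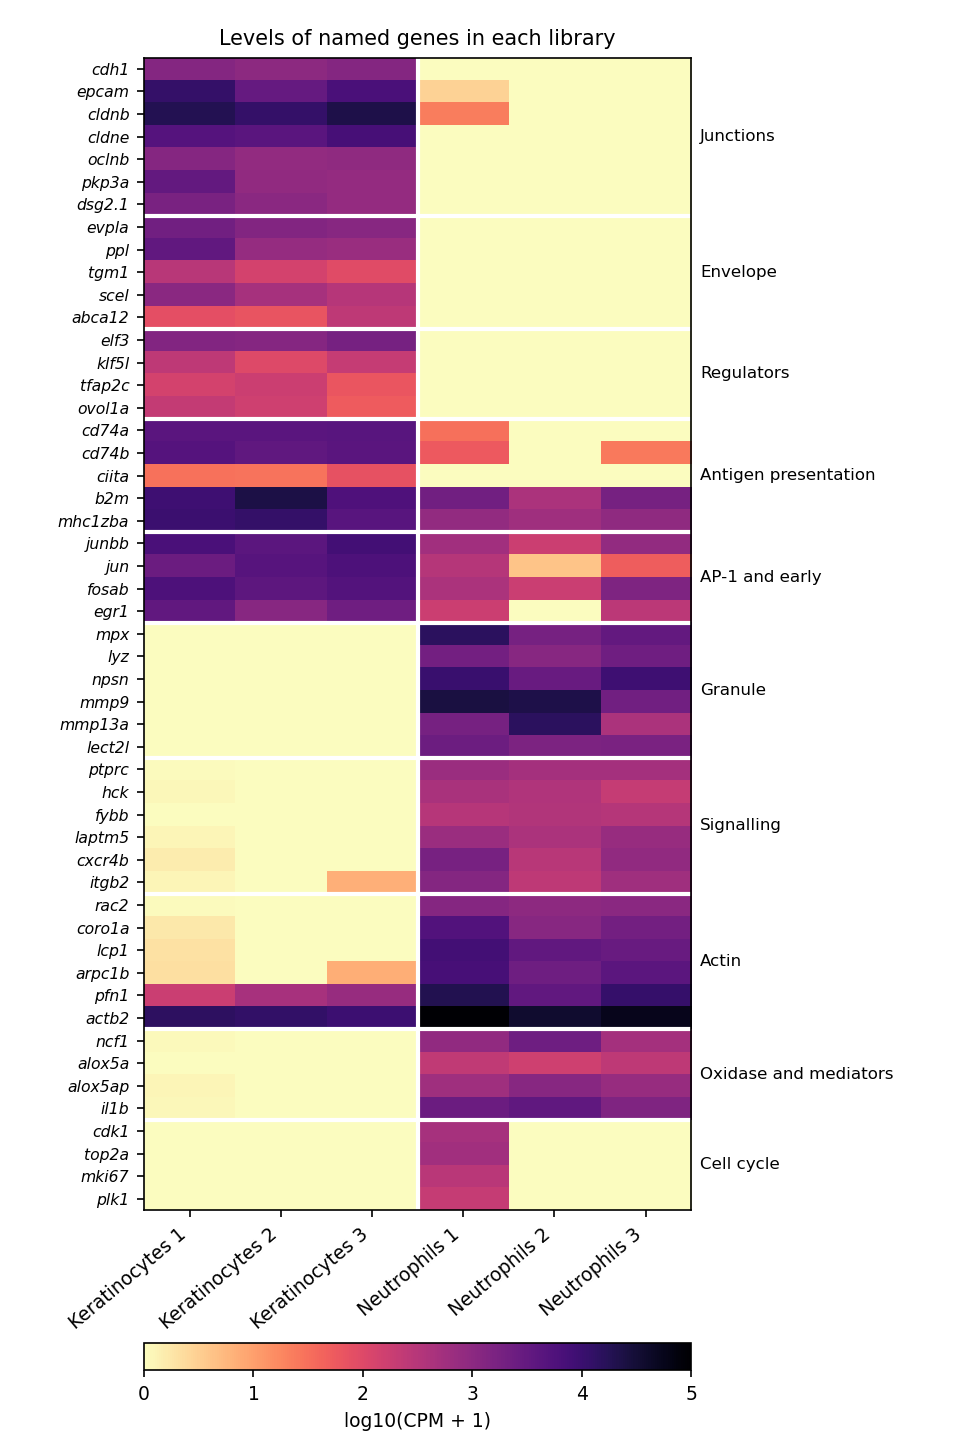
Level of named genes in the 3 keratinocyte libraries (left) and the 3 neutrophil libraries (right), as log10(CPM + 1) from 0 (pale) to 5 (black), grouped by role. The junction, envelope and regulator genes are dark in keratinocytes and pale in neutrophils, the granule, signalling and mediator genes are the reverse, b2m, mhc1zba, junbb, pfn1 and actb2 are dark in both, and the 4 cell cycle genes are dark in neutrophil replicate 1 alone among these 6 libraries.

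Replicates of a cell type were not alike. Cell cycle genes were carried by neutrophil replicate 1: the mitotic kinase cdk1 had 0 counts in every keratinocyte library, against 488, 0 and 0 CPM in neutrophils. The topoisomerase top2a had 0 counts in every keratinocyte library, against 558, 0 and 0 CPM in neutrophils. The gene mki67, a marker of dividing cells, had 0 counts in every keratinocyte library, against 282, 0 and 0 CPM in neutrophils. Of 45 matched members 40 had at least 1 count in that library, against 7 and 5 in neutrophil replicates 2 and 3 and 9 to 14 in keratinocytes. The summed level was 9061 CPM there, 231 and 416 CPM in the other neutrophils and 991 to 1506 CPM in keratinocytes. No member of the 40 tested was called by edgeR. By the same test 24 had an unadjusted p under 0.05, against 4494 of all 15247 tested genes. DESeq2 called 16 lower and 1 higher, against 8.70% and 17.1% over all tested genes. Neutrophil replicate 1 was also the library with the most genes detected among the 6, and the part of that in these values was not tested.

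Among genes averaging at least 200 CPM, 17 of 617 in keratinocytes and 53 of 564 in neutrophils differed by at least 50 times between their highest and lowest library, 9 and 45 of them with a library at 0. The immune-responsive gene irg1l had 0, 19059.6 and 1811 CPM in keratinocytes, against 0 counts in every neutrophil library (edgeR adjusted p = 0.0179). The ectonucleotidase nt5e had 0, 2710.3 and 2512 CPM in keratinocytes, against 0 counts in every neutrophil library (edgeR adjusted p = 0.0118), so both were called although replicate 1 lacked them. The sulfotransferase sult2st3 had 9.80, 28548 and 1276 CPM in keratinocytes, against 0, 9.49 and 0 CPM in neutrophils (edgeR adjusted p = 0.0594). The chemokine receptor ccr9a had 0.205, 0 and 0 CPM in keratinocytes, against 2347, 36.3 and 136 CPM in neutrophils (edgeR adjusted p = 0.000216). The phosphodiesterase pde4ba had 277, 128 and 203 CPM in keratinocytes, against 1316, 1342 and 0 CPM in neutrophils (edgeR adjusted p = 0.393), so replicate 1 led for ccr9a and replicate 3 lacked pde4ba.

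Set beside the other cells of the series, as levels with no test, the granule genes were low elsewhere: mpx ran at 0 to 0.0765 CPM in MLCs, 0 to 2.72 CPM in cLCs and 0 to 153 CPM in T cells, and lyz at 0 to 0.459 CPM in MLCs, 0 in all cLC libraries and 0 to 21.1 CPM in T cells. The actin regulators rac2 and coro1a were present in the other leukocytes: rac2 ran at 781 to 2305 CPM in MLCs, 408 to 964 CPM in cLCs and 389 to 519 CPM in T cells, and coro1a at 652 to 1620.0 CPM in MLCs, 64.3 to 1499.8 CPM in cLCs and 946 to 1798 CPM in T cells. Among the higher genes, levels of cldne were 0 to 31.0 CPM in MLCs and 0 in all cLC and T cell libraries, and those of nos2a were 0 to 64.7 CPM in MLCs, 0 to 31.1 CPM in cLCs and 0 in all T cell libraries. For cdh1, MLCs stood at 749 to 1539 CPM, around the keratinocyte level, while cLCs stood at 0.329 to 26.3 and T cells at 0 to 0.153 CPM.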

How the data were processed

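Counts per gene and TPM values were deposited by the authors in a table each for 17 libraries; per the submitters' processing notes, STAR, featureCounts and the danRer10 build were used. No source used here states versions, annotation release or how strand was handled. The 35572 lines of each table held 35117 unique IDs, each used once. Calls came from edgeR 4.0.16 in R 4.3.3 (TMM scaling, expression filter by group, quasi-likelihood test, 15247 genes, all 5 groups sharing a spread). DESeq2 1.42.0, limma 3.58.1 on log2 TPM, other filters and left-out libraries were tried as alternatives. Fitted fold changes of genes at 0 counts in a group are no bounds; folds printed for them use a floor of 3 counts over that group. The filter used all groups, so list medians are descriptions. The comparison, its 37 gene lists (1187 symbols, of which 1092 matched) and its naming rule were chosen with earlier results of these data known. The rule named, per direction, the 12 genes of highest level and the 8 of largest fold among called genes without overlap. It also named up to 4 genes per list by adjusted p, 5 markers and the 15 genes of highest TPM per group. Per group it added the 5 of highest mean among genes averaging at least 200 CPM that differed at least 50 times between libraries or had a library at 0. Other genes were named after their values were seen. Scripts were tested on simulated data. Some called genes are not reported here.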

Additional observations from a re-analysis of the deposited data

How the results depend on the processing

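The main counts were 457 higher and 282 lower. DESeq2 gave 2604 and 1326. On TPM, limma gave 1441 and 635 with a pseudocount of 1, 1488 and 561 with 0.1, and 1384 and 557 without a filter. Without a filter on low counts edgeR called 653 and 489, and the 6 libraries alone gave 693 and 285. With neutrophil replicates 2 and 3 out the counts were 9 and 161, and without the 4 libraries of the series under 6000 detected genes they were 168 and 426. Leaving out 1 library at a time gave 112 to 301 higher and 125 to 229 lower; each of the 6 moved the higher count by over 1.5 times, and each keratinocyte library did so for the lower count (125, 141 and 137 without replicates 1, 2 and 3). The cause was not tested for any of these. RLE scaling, a filter at 10 CPM in 3 libraries and a test for a fold above 2 stayed within 1.5 times of the main counts, and with RLE scaling all 457 and 282 genes were called again.

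Deviations of same-numbered libraries from their group means correlated at 0.0149, -0.0118 and 0.0449, and not every library correlated best with its own number. With 3 libraries per group these values cannot decide whether same-numbered libraries share a batch. The share of counts in ENSDARG00000080337 rose with replicate number in both groups. It was 4.94%, 23.0% and 26.1% in keratinocytes and 3.77%, 7.52% and 16.6% in neutrophils. A shared batch was not tested. With the replicate number as a block, 719 were higher and 411 lower. Of 108 called genes that are named by the rule, 0 reversed under any alternative, 56 kept their call in all 6 leave-one-out fits, and 29 kept it with neutrophil replicate 1 alone. The uncalled slc24a5 reversed, at a log2 fold change of -4.21 without keratinocyte replicate 1, -0.61 with 1 neutrophil library left and -0.56 without the 4 sparse libraries, against 0.94 with all libraries and 5.12 without neutrophil replicate 1. At this depth a gene at 0 counts was below 0.0808 CPM in keratinocytes and below 0.0473 CPM in neutrophils over the group, by counting alone.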
